A study of Mus musculus with 50 samples.

Results

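Cells rich in immunoglobulin transcripts were followed in a spatial map of mouse liver. They were selected on their measured counts: a segmented cell with at least 20 gene counts was taken when Igkc, Jchain and Igha together gave at least 8 counts and at least 8% of the cell's gene counts. The selection found 522 cells among the 49917 cells with at least 20 counts (1.05%). They are called Ig-rich cells below, and Igkc, Jchain and Igha made the selection, so they are not tested between these cells and others and count in no comparison as a mark of plasma cells. The selection did not use the genotype. Few cells lay at the border of 8 counts, with 8 cells at 7 counts just outside and 3 cells at exactly 8 counts inside. The border of 8% was denser, because 197 cells had 8 or more counts but a smaller share, 55 of them between 6% and 8%, and 48 of the selected cells lay between 8% and 10%. The median Ig-rich cell held 35 counts of the 3 targets (range 8 to 289), which was 21.7% of its gene counts (highest 78.7%).

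Plasma cells are the antibody-secreting end stage of the B lineage. Each antibody pairs a light chain, most often kappa in the mouse (Igkc), with a heavy chain whose constant region sets the isotype: Ighm gives IgM, Ighg1 gives IgG1, Igha gives IgA, and Ighd gives the IgD of naive B cells. A B cell that switches class deletes the earlier constant regions from its DNA, so a switched plasma cell makes 1 heavy chain. The J chain (Jchain) joins IgA into dimers and IgM into larger polymers. In the liver, IgA can be carried into bile, and plasma cells gather around portal tracts in chronic inflammation.

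The livers came from wild-type C57BL/6 mice (Control) and from C57BL/6 mice with floxed Hira alleles (HIRA fl/fl, called HIRA KO). Both groups received AAV8 carrying Cre under the TBG promoter, which is active in hepatocytes, at 6 months of age and were collected 12 months later, at 18 months. The deletion was thus aimed at hepatocytes and not at the B lineage. Hira was not on the panel of 1000 gene targets, so the label could not be checked by its transcript. The map covered 6 tissue areas on 1 slide, 3 per group, in 50 fields of view of which 25 lay in each group. The series' design names 3 mice per group, but no label ties an area to a mouse, so the spread between areas may be in part technical. The labels do not state where the areas lay on the slide. The Control areas were taken to share one column of it and the HIRA KO areas the opposite one. Under this assumed layout genotype and side of the slide cannot be told apart. Areas of the same number were taken as 1 slide row, a pairing that no label states, so each of 3 assumed slide rows held 1 area of each group. The areas held 6829 to 10180 cells with median gene counts of 88 to 149 per cell. Control 2 and Control 3 contributed only 3 and 11 Ig-rich cells, and every result below that gives each area equal weight rests on those few cells for these areas.

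The genes that the selection did not use bore on the label. Mzb1, a chaperone of antibody assembly, Xbp1 and Irf4, transcription factors of the plasma cell programme, and Cd79a, a signalling chain of the B cell receptor, were higher in Ig-rich cells than in their neighbours, which makes 4 of the 8 measured plasma cell markers beside 2.04% of all genes tested. Of the mature B cell list, 2 of 9 tested genes were higher, Ighm and Cd52. Ms4a1, which marks B cells before the plasma cell stage, did not pass the test, with a log2 fold change of 0.15. Prdm1 and Sdc1, further plasma cell markers, were not on the panel. The 9 hepatocyte markers were all lower than in the neighbours. A different scheme gave each cell the marker class that stood farthest above an average cell of the same depth. It held no plasma cell class and did not count Ighm for mature B cells, so it could not name a plasma cell. Its classes are therefore no check of the label. It left 345 of the Ig-rich cells unassigned, called 107 of them MHC class II myeloid and 12 mature B cells, and gave all other classes together to the rest. The values behind these statements are given further on.

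Ig-rich cells were unevenly spread. Control 1 held 138 of 8181 cells (1.69%), Control 2 held 3 of 6829 (0.0439%, exact 95% binomial interval 0.00906 to 0.128%) and Control 3 held 11 of 7058 (0.156%). HIRA KO 1 held 210 of 10180 (2.06%), HIRA KO 2 held 47 of 10150 (0.463%) and HIRA KO 3 held 113 of 7519 (1.503%). The groups overlapped, since Control 1 lay above both HIRA KO 2 and HIRA KO 3. The Control areas averaged 0.629% ± 0.918 and the HIRA KO areas 1.34% ± 0.812 (SD over 3 areas), a difference of 0.714 percentage points that was not beyond the spread between areas (exact permutation test, two-sided, p = 0.3, where 3 against 3 areas cannot go below 0.1). HIRA KO was the higher one in 3 of 3 assumed slide rows. The difference was 1.24 points without Control 1, 1.15 without HIRA KO 2, 0.422 without Control 2 and 0.354 without HIRA KO 1, and 0.276 with only the richest cell kept among neighbouring Ig-rich cells. Intervals cover counting error only.

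Most Ig-rich cells sat in a few places. Only 33 of the 50 fields held any, and 4 fields held 373 of the 522 (71.5%). In Control 1, a single field held 129 of 138. Ig-rich cells were chained into groups wherever their centres lay within 250 pixels of each other (the pixel size is not stated in the sources used here). This gave 7 groups of 10 or more cells that together held 349 Ig-rich cells (66.9%), while 60 had no other Ig-rich cell within that distance. A chaining distance of 150 pixels gave 8 groups with 317 cells, and 400 pixels gave 5 groups with 362. The largest group, of 128 cells in Control 1, spanned 1484 by 1338 pixels. The next, of 77 cells in HIRA KO 3, spanned 1400 by 590 pixels. The other 5 groups all lay in HIRA KO 1 and had 62, 26, 23, 21 and 12 cells. HIRA KO 2, Control 2 and Control 3 held none. Of the 7 groups, 6 reached to within 60 pixels of the edge of their field, so their full extent was not measured. Of the members of these groups, from the largest to the smallest, 25.8%, 68.8%, 11.3%, 84.6%, 91.3%, 28.6% and 0% lay within 250 pixels of the edge, against 19.7% to 24.4% of the other cells of their fields.

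**Figure D1:**
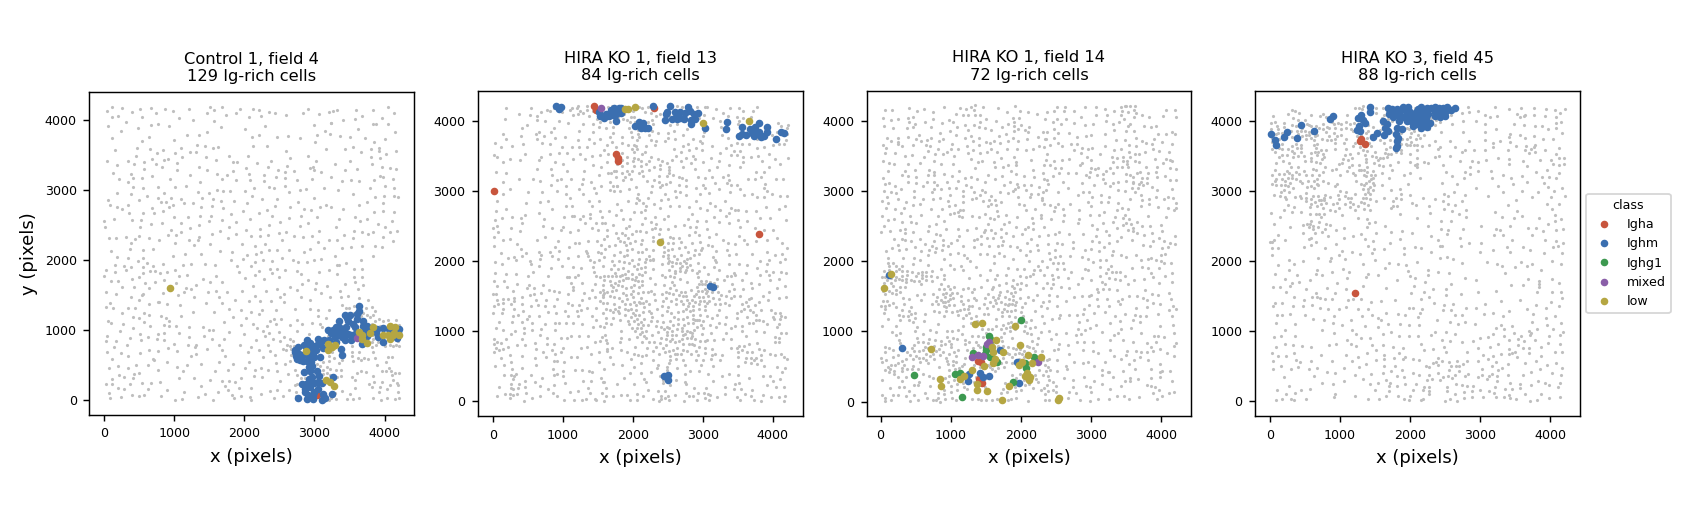
Positions of cells in the 4 fields of view with most Ig-rich cells, x and y in pixels from the outermost cell centres of each field. Grey points are other cells with at least 20 counts and coloured points are Ig-rich cells by heavy chain class; bands of Ighm cells (blue) run along or into the field edge in Control 1, HIRA KO 1 and HIRA KO 3, and the second HIRA KO 1 field holds a mixed group with Ighg1 cells (green) and cells low in heavy chain (yellow).

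The crowding was also seen from each cell's surroundings. In Control 1, Control 2 and Control 3, another Ig-rich cell was among the 20 nearest cells of 94.2%, 66.7% and 36.4% of the Ig-rich cells. In HIRA KO 1, 2 and 3 the shares were 89.5%, 80.9% and 86.7%. Among all other cells they were 3.99%, 0.674%, 2.44%, 12.2%, 5.19% and 7.89% in the same order. The difference averaged 70.3 percentage points ± 19.4 (SD, n = 6 areas) and was positive in 6 of 6 areas (exact sign-flip test, two-sided, p = 0.031, the smallest that 6 areas allow). It did not separate the genotypes (63.4 points in Control, 77.3 in HIRA KO, exact permutation p = 0.7). Both sides of this comparison rest on the 3 selecting targets, which were also raised in unselected cells close by. In Control 1 they made up 35.7 per 1000 counts within 100 pixels of an Ig-rich cell and 1.996 beyond 1600. With only the richest cell kept among neighbouring Ig-rich cells, Control 1 held 0.232% in place of 1.69%. Whether spread of signal added to the crowding was not tested. The median distance to the nearest other Ig-rich cell was 56.2 to 90.9 pixels in 5 areas and 590 pixels in Control 3.

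Outside the groups the genotypes did not overlap. Ig-rich cells that belonged to no group numbered 12.2, 4.39 and 15.6 per 10000 cells in Control 1 to 3 and 64.8, 46.3 and 47.9 per 10000 in HIRA KO 1 to 3. Every HIRA KO area thus lay above every Control area. The means were 10.7 ± 5.74 and 53.0 ± 10.3 per 10000 (SD over 3 areas, two-sided exact permutation p = 0.1, which 3 against 3 cannot undercut). With the field richest in Ig-rich cells left out of each area, the shares were 0.125%, 0.0168% and 0.0843% in Control and 1.46%, 0.349% and 0.396% in HIRA KO, again without overlap (p = 0.1, exact permutation test). Neither passed adjustment over the 12 measures compared between genotypes (Benjamini-Hochberg p = 0.4 for both). These 2 ways of leaving out crowded cells were chosen after the data were seen.

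**Figure D2:**
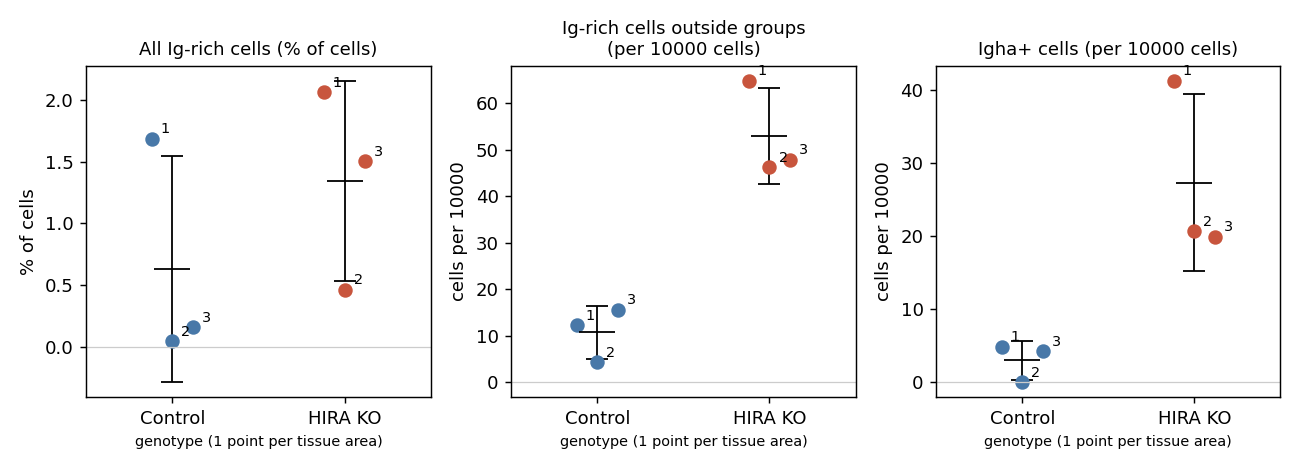
Frequency of Ig-rich cells in each tissue area: all of them as % of cells, those outside groups of 10 or more, and the Igha+ ones, both per 10000 cells. Numbers mark the area, bars give mean ± SD over 3 areas; the first panel overlaps between Control (0.0439 to 1.69%) and HIRA KO (0.463 to 2.06%), and in the other panels all HIRA KO areas lie above all Control areas.

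The isotype was read from the heavy chain targets. The panel held Igkc, Igha, Ighg1, Ighm and Ighd, but no lambda light chain, no other Ighg gene and no Ighe. Cells of the unmeasured heavy chains could thus be selected only through Igkc or Jchain, and cells with a lambda chain only through Igha or Jchain. Ig-rich cells, 1.05% of the cells, held 60.6% of the Igkc, 48.6% of the Igha and 48.3% of the Ighm counts found in cells with at least 20 counts, but 14.9% of the Ighg1 and 1.29% of the Ighd counts. Igha, Ighg1 and Ighd were at 0.464, 0.780 and 0.468 per 1000 counts in the other cells, and Ighd was at 0.561 in Ig-rich cells. The highest negative probe was at 0.565 over all cells with at least 20 counts, so these targets lay near the background in other cells. Each Ig-rich cell was put into a class by the heavy chain that gave at least 66% of its Igha, Ighm and Ighg1 counts and at least 3 counts. This made 317 Ighm cells, 77 Igha cells, 29 Ighg1 cells, 11 mixed cells and 88 cells with fewer than 3 counts of any of them, called low. Igha entered the selection but Ighm and Ighg1 did not, so the number of Igha cells is a description.

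Heavy chains were nearly exclusive of each other. Of 86 Ig-rich cells with at least 3 Igha counts and 331 with at least 3 Ighm counts, 11 had both. Igha and Ighg1 met in 4 cells, and Ighm and Ighg1 in 6 of the 38 cells with Ighg1. The class rule itself keeps the other heavy chains low, so means by class describe the classes and do not bear on how exclusive the chains were. Igha cells carried a mean of 37.4 Igha and 0.429 Ighm counts, Ighm cells 0.145 Igha and 21.8 Ighm counts, and Ighg1 cells 0.138 Igha, 0.724 Ighm and 26.5 Ighg1 counts. The Igha share of the 3 selecting targets was likewise split, with 425 cells under 5%, 9 from 5% to 10%, 13 from 10% to 30%, 60 from 30% to 60% and 15 at 60% or more. Mean Jchain counts, which helped to select the cells, were 9.39 in Igha, 6.93 in Ighm and 3.07 in Ighg1 cells. The 88 low cells had as much Igkc (mean 33.2 counts) as the Ighm cells (32.3), while none of the 3 heavy chains reached 3 counts in them.

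**Figure D3:**
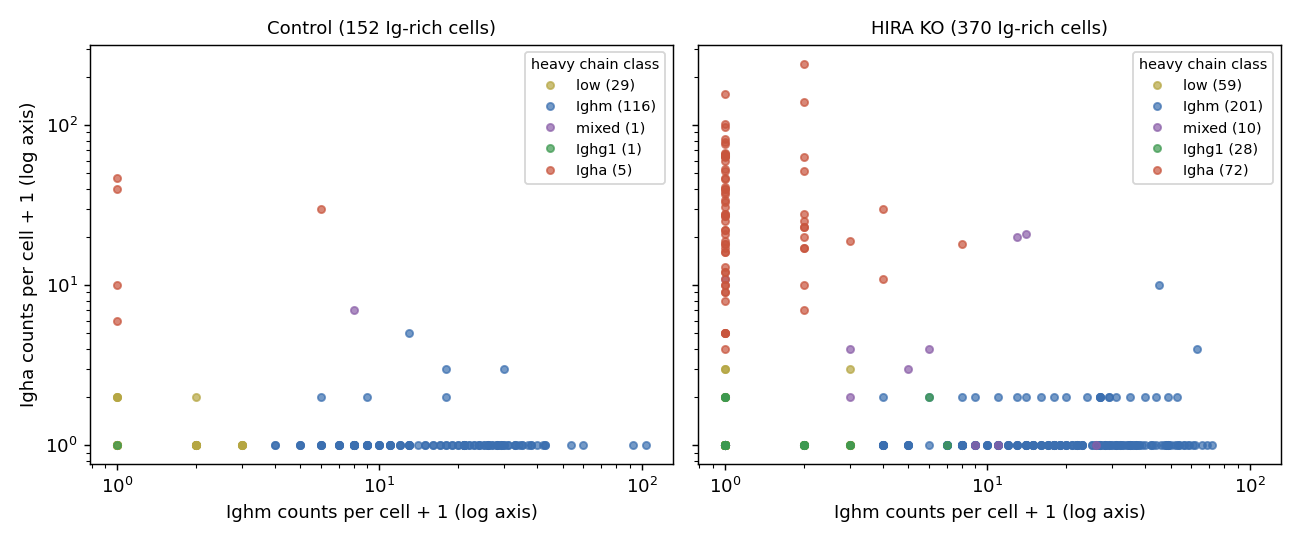
Igha against Ighm counts of each Ig-rich cell, both plus 1 on log axes, for the 152 cells of Control areas and the 370 of HIRA KO areas, coloured by heavy chain class. Cells lie along one axis or the other, with 11 of them above 2 counts on both; Igha cells number 5 in Control and 72 in HIRA KO.

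A set of Igha cells carried almost no kappa chain. Fewer than 3 Igkc counts were found in 13 Ig-rich cells, 9 of which had none, and all 13 were Igha+ (at least 3 Igha counts that made up at least 10% of the 3 selecting targets). The selection favoured this, since a cell poor in Igkc reached 8 counts only through Igha or Jchain. Their Igha counts ran from 6 to 241, and the cell with 241 had 0 Igkc. All 13 lay in HIRA KO areas, with 3, 9 and 1 in HIRA KO 1 to 3. The other 72 Igha+ cells had 3 or more Igkc counts. As lambda chains were not on the panel, whether these cells made one was not measured.

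Igha+ cells were found in more places in HIRA KO. They numbered 4, 0 and 3 in Control 1 to 3 and 42, 21 and 15 in HIRA KO 1 to 3, and lay in 5 of the 25 Control and 18 of the 25 HIRA KO fields. Per 10000 cells this was 4.89, 0 and 4.25 in Control and 41.3, 20.7 and 19.9 in HIRA KO. In Control 2, 0 of 6829 cells allows up to 4.39 per 10000 if a count of 0 is taken to allow 3, and the exact 95% binomial interval reaches 5.4. All HIRA KO areas lay above all Control areas (27.3 ± 12.1 against 3.05 ± 2.66 per 10000, SD over 3 areas, two-sided exact permutation p = 0.1, adjusted p = 0.4). HIRA KO was higher in 3 of 3 assumed slide rows, by 36.4, 20.7 and 15.7 per 10000. With only the cell richest in the 3 targets kept among neighbouring Ig-rich cells, the difference was 12.4 in place of 24.3 per 10000, without overlap. This rate was added after the data were seen, and it rests on Igha, one of the selecting targets, so it compares how many cells each area gave to the selection.

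As a share of the Ig-rich cells, the isotype did not separate the genotypes. Igha+ cells were 2.90%, 0% and 27.3% of the Ig-rich cells in Control and 20%, 44.7% and 13.3% in HIRA KO (exact permutation p = 0.3). Igha gave 0.998%, 0% and 19.2% of the summed counts of the 3 selecting targets in Control 1 to 3, and 12.8%, 40.3% and 11.7% in HIRA KO 1 to 3. Control 3 lay above HIRA KO 1 and HIRA KO 3, and the difference of 14.8 points was within the spread (exact permutation p = 0.3). Without Control 3 it was 21.1 points and without HIRA KO 2 it was 5.48. Ighm cells numbered 131, 4.39 and 8.50 per 10000 cells in Control and 88.4, 15.8 and 126 in HIRA KO and overlapped (exact permutation p = 0.6). Of the 29 Ighg1 cells, 28 lay in HIRA KO 1 and 1 in Control 1 (exact permutation p = 1).

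Igha and Ighm cells were found in groups in different shares when all areas were pooled. Of the Ighm cells 79.2% belonged to a group of 10 or more, against 15.6% of the Igha cells, and 29.9% of the Igha cells but 7.26% of the Ighm cells had no Ig-rich cell within 250 pixels. Counted by area, Igha cells were in groups less often than Ighm cells in the 3 areas that had groups (50% against 97.2% in Control 1, where only 2 cells were Igha, 21.1% against 81.1% in HIRA KO 1 and 20% against 77.9% in HIRA KO 3). The areas without groups gave 0% for both, and the test over 5 areas did not pass (exact sign-flip p = 0.25). Igha cells were alone more often than Ighm cells in 4 of 5 areas, but less often in HIRA KO 2 (15.8% against 31.2%), and this did not pass either (exact sign-flip p = 0.125, adjusted 0.375).

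Each group had a leading heavy chain. In the group of 128 cells in Control 1, Ighm gave 96.6% of the heavy chain counts, against 44.7% in the 10 other Ig-rich cells of that area. In the group of 77 cells in HIRA KO 3, it gave 96.2%, against 45.5% in the 36 others, where Igha gave 53.2%. In HIRA KO 1, 3 groups of a single field were led by Ighm too, at 84.8%, 95.4% and 99.2%. The group of 62 in HIRA KO 1 was led by Ighg1 (59.97%), with 15 Ighg1, 8 Ighm, 4 Igha, 6 mixed and 29 low cells, and so was the group of 12 (72.2%). No group was led by Igha. The median CD45 stain was 9186, 15109 and 15516 in the groups of 128, 77 and 62 cells and 4236 to 7639 in the others. No test was made on groups, which are not replicates.

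To ask which other genes set Ig-rich cells apart, their counts were summed in each area and compared with the sum of their 20 nearest cells that were not Ig-rich, with area as a block (edgeR quasi-likelihood test, Benjamini-Hochberg adjustment). Igkc, Jchain and Igha were left out of the sums. Of 686 genes tested, 14 were higher (2.04%), 16 lower (2.33%) and 30 changed in all (4.37%). Over all genes the median log2 fold change was -0.06. With plain library sizes in place of TMM factors the median was -0.23 and the split 14 higher and 61 lower. In Control 2 the 3 cells held 303 counts in all, and many genes were at 0 there.

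Of the genes tested, Ighm was raised the most. It reached 116, 205 and 108 per 1000 gene counts in Ig-rich cells of Control 1 to 3 and 67.5, 51.7 and 130 in HIRA KO 1 to 3, against 5.00, 1.94, 1.82, 4.44, 1.85 and 6.64 in the neighbours. Its log2 fold change was 4.69 ± 0.22 (SE, edgeR adjusted p = 8.84e-92), and no area of Ig-rich cells came near the neighbours' values. Ighg1 was higher by 2.35 ± 0.33 (adjusted p = 8.61e-11), but its level was 28.04 per 1000 in HIRA KO 1 and 0.597 to 3.71 in the other areas. Without HIRA KO 1 the log2 fold change of Ighg1 was 1.46.

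Of the plasma cell list 4 of 8 tested genes were higher, and of the secretory list 2 of 3. Mzb1 was at 2.60, 0 and 6.38 per 1000 in Control and 2.55, 3.88 and 2.55 in HIRA KO, against 0.484 to 0.664 in the neighbours (log2 fold change 2.46 ± 0.22, edgeR adjusted p = 2.86e-26). Xbp1 was at 6.65, 0, 5.47, 4.12, 4.18 and 5.15 against 1.13 to 1.64 (1.90 ± 0.25, adjusted p = 1.03e-11). Hsp90b1, a chaperone of the endoplasmic reticulum, was at 3.55, 0, 8.20, 6.06, 14.6 and 4.99 against 1.76 to 2.20 (1.68 ± 0.25, adjusted p = 4.90e-09). Irf4 was higher by 1.303 ± 0.22. In each of these the 5 areas other than Control 2 lay above all neighbour sums, and Control 2 was at 0. The secretory list named 21 genes, of which Ddit3, a stress-response factor, was the third tested and had 0.31. Of the plasma cell list, Cd79a was higher by 0.83 in 6 of 6 areas, and the survival receptors Tnfrsf17 (0.61) and Tnfrsf13b (0.47) and the surface proteins Cd38 (-0.35) and Cd27 (-0.26) did not pass. The call of Cd79a was lost without HIRA KO 1 (adjusted p = 0.293) and without HIRA KO 3 (0.136).

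Apart from Ighm, few genes of the mature B cell list passed. Of the 9 tested genes of the mature B cell list, 2 were higher, Ighm and Cd52, a surface glycoprotein of lymphocytes (1.06 ± 0.26, edgeR adjusted p = 0.00164). The call of Cd52 was lost without HIRA KO 2 (adjusted p = 0.0605). Cd37 (0.45), Cd22 (0.32) and H2-DMb2 (0.19) did not pass. Fcrla, an Fc receptor-like protein inside B-lineage cells, was higher by 0.96 ± 0.23 in 6 of 6 areas, and its call was lost without Control 1 or without HIRA KO 1. B2m, the light chain of MHC class I, was higher by 1.10 ± 0.23 (adjusted p = 0.000114), at 9.90 to 21.8 per 1000 against 3.87 to 12.4. The B2M stain, in contrast, was higher in 4 of 6 areas against all other cells and lower in 2.

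Slpi followed Ighm in size, and its counts came from some of the cells. Slpi encodes a secreted inhibitor of serine proteases. It was at 25.9, 0 and 2.73 per 1000 in Control 1 to 3 and 19.5, 4.18 and 5.47 in HIRA KO 1 to 3, against 0.250 to 1.40 in the neighbours (log2 fold change 3.83 ± 0.30, edgeR adjusted p = 6.39e-34). It was highest in the Ighg1-led group of 62 cells (41.7 per 1000) and in the Ighm-led group of 128 (27.02), and 1.25 to 10.8 in the other 5 groups. By class, with all heavy chain counts left out as well, it was 1.68 per 1000 in Igha cells, 13.1 in Ighm cells, 32.5 in Ighg1 cells and 41.5 in low cells. Within HIRA KO 1 the order was the same, at 1.77, 7.63, 32.5 and 50.01. In HIRA KO 2 it was 0.358 in Igha, 7.35 in Ighm and 13.5 in low cells, in HIRA KO 3 it was 1.32 in Igha and 7.38 in Ighm cells, and in Control 1 it was 25.9 in Ighm and 42.4 in low cells. Igha cells were thus the lowest in each of the 3 areas with 5 or more of them. The split of Slpi by class was chosen after its values were seen and no test was made on it.

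Other raised genes were S100a9 (0.96), a calcium-binding protein of neutrophils, Srgn (0.90), a proteoglycan of secretory granules, and Cd24a (0.78), which is on the biliary list and also known from immune cells. S100a8, the partner of S100a9, did not pass (-0.17). T/NK genes (0 of 6), MHC class II myeloid genes (0 of 6), stellate genes (0 of 8) and Kupffer cell genes (0 of 4) gave no call. Cd74, the MHC class II chaperone, was at 0.68 (adjusted p = 0.0612). Of the homing and survival list 0 of 11 tested genes passed (edgeR), and the nearest was Cxcr4, the receptor for Cxcl12 that holds plasma cells in bone marrow (0.81, adjusted p = 0.0539). Of the niche ligands 0 of 11 passed and of the cell cycle genes 0 of 5, with Mki67 at 0.35. Some of these targets had low counts: Fn1, a niche ligand, was at 0.374 per 1000 in Ig-rich cells, where the highest negative probe was at 0.347. In the simulated sums described below, this comparison recovered 51.9% of genes with a log2 change of 1. A gene without a call may thus still have differed.

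Hepatocyte genes were lower. All 9 tested markers passed, with a median log2 fold change of -1.46 beside -0.06 over all genes. Ttr, the carrier of thyroid hormone and retinol, was at 1.33, 9.90, 14.6, 3.12, 16.7 and 6.79 per 1000 in Ig-rich cells and at 12.3, 16.6, 21.2, 15.4, 38.2 and 38.2 in the neighbours. Its log2 fold change was -1.98 ± 0.24 (edgeR adjusted p = 5.72e-14), and each area fell. The apolipoprotein Apoa1 (-1.73), the fibrinogen chain Fgg (-1.60), the apolipoprotein Apoc1 (-1.46), the adhesion protein Vtn (-1.39) and the selenium carrier Selenop (-1.39) were lower in 6 of 6 areas, and each kept its call under the 11 alternatives run. Glul (-0.93), the glutamine synthetase of cells around the central vein, Serpina1a (-0.83) and the natriuretic peptide receptor Npr2 (-1.11) lost their calls under 6 alternatives each.

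Between genotypes, no gene of the Ig-rich cells passed (0 of 329, 0%, edgeR). At an unadjusted p under 0.05 there were 6, and DESeq2 gave 0 and 1. The difference between Ig-rich cells and neighbours did not depend on genotype for any gene either (0 of 860, 0%, edgeR interaction test, 20 at an unadjusted p under 0.05, DESeq2 0 and 15). In simulated sums of the same depth, a change of 2 on the log2 scale was recovered in 77.8% of the changed genes for the genotype test (410 genes) and in 34% for the interaction (878 genes). A change of 1 was recovered in 13.7% and 0%, so most differences of that size would have been missed at this depth. The simulation gave every gene the same preset dispersion and took gene means over all sums together. Genes that vary more between areas can be recovered less often than these shares say.

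Stains and shape, which the selection did not use, set Ig-rich cells apart. The CD45 stain, a surface protein of all leukocytes, had medians of 8873, 1644 and 1859 intensity units in Ig-rich cells of Control 1 to 3 and of 7184, 2732 and 13048 in HIRA KO 1 to 3. In all other cells the medians were 761, 655, 793, 1040, 861 and 1145. CD45 was thus higher in 6 of 6 areas (exact sign-flip test, two-sided, p = 0.031, adjusted over 8 measures 0.0625). The DAPI stain was higher in 6 of 6 areas, though by 2061 against 2059 in Control 2. Cell area was lower in 6 of 6, at 4936 to 6890 square pixels against 8817 to 16630, and nuclear area in 6 of 6, at 1932 to 2681 against 2692 to 3080 (both p = 0.031, exact sign-flip test, adjusted 0.0625). Against the direct neighbours in place of all other cells, cell area was lower: the mean difference was -2458 in place of -6704 square pixels on average (exact sign-flip p = 0.031) and that of nuclear area -188 in place of -631 (p = 0.125). The epithelial stain PanCK was lower in 5 of 6 areas, and the T cell stain CD3 was higher in 4 of 6 (exact sign-flip p = 0.1875).

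**Figure D4:**
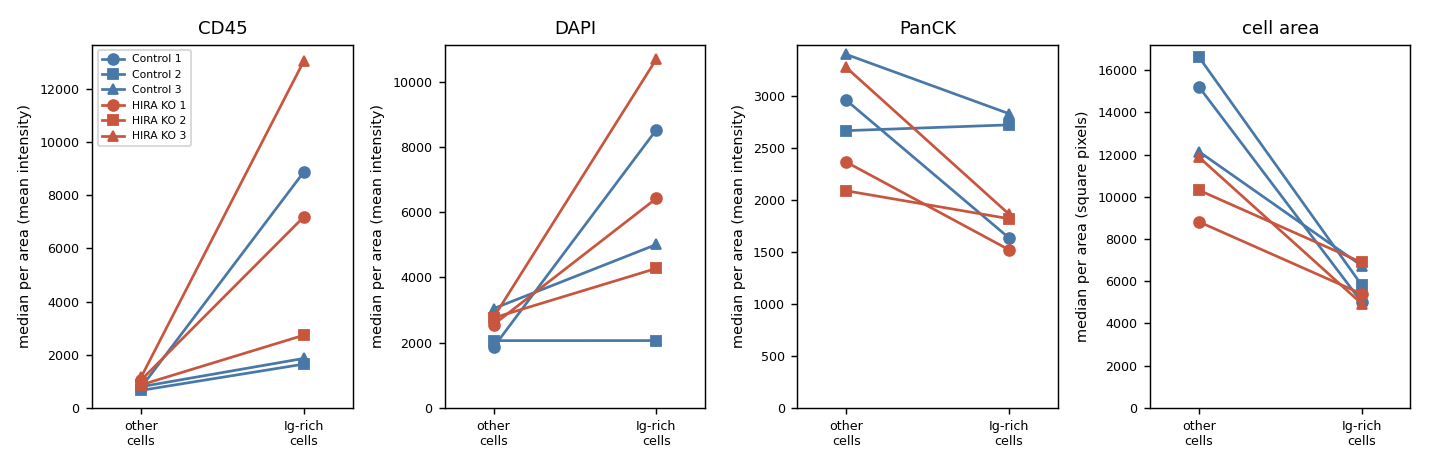
Median CD45, DAPI and PanCK stain intensity and median cell area (square pixels) of Ig-rich cells and of all other cells, 1 line per tissue area, blue for Control and red for HIRA KO, with all axes from 0. CD45 and DAPI rise in all 6 areas (DAPI in Control 2 only from 2059 to 2061) and cell area falls in all 6.

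Few of these measures separated Igha from Ighm cells in one direction. Over the 5 areas that held both, Igha cells had the lower DAPI median in 5 of 5 (4408 against 6878 on average) and the lower Cd79a level in 5 of 5 (1.13 against 2.44 per 1000), each at p = 0.0625 (exact sign-flip test), the smallest that 5 areas allow, and at 0.375 after adjustment over 15 measures. CD45 was lower in 4 of 5 areas, with the widest gap in HIRA KO 3 (2476 against 13867). Mean differences in Mzb1 (0.16 ± 2.64 per 1000, SD, n = 5) and Xbp1 (-1.60 ± 2.90) were smaller than their spread, so a difference of that size was not detectable with these cells. Control 1 and Control 3 gave only 2 and 3 Igha cells to these values.

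Neighbours of other kinds were counted with marker classes. The MHC class II myeloid class was scored on H2-Aa, H2-Ab1, H2-Eb1 and Cd74 beside Itgax and Cd68, and it also took 107 Ig-rich cells. Whether the neighbours in this class were myeloid or of the B lineage was not tested. Among the 20 nearest cells that were not Ig-rich, MHC class II myeloid cells made up 29.6%, 0% and 7.73% around Ig-rich cells in Control 1 to 3 and 30.4%, 10.3% and 50.8% in HIRA KO 1 to 3. Around all other cells they made up 4.60%, 1.13%, 3.78%, 9.99%, 4.36% and 11.1%. They were more frequent in 5 of 6 areas, all but Control 2 with its 3 Ig-rich cells (mean difference 15.6 points ± 15.5, SD, exact sign-flip p = 0.0625, adjusted over the classes 0.1875). Portal fibroblast cells were more frequent in 5 of 6 areas as well, at 4.003% on average against 1.56%. So were Glul-high cells, which mark the surroundings of the central vein (4.18% against 1.93%), and mature B cells (2.07% against 1.12%). None of these 3 classes passed (exact sign-flip p = 0.0625, 0.0938 and 0.25). Hepatocyte marker cells (3.12% against 8.41%) and sinusoidal endothelial cells (1.59% against 2.95%) were less frequent in 5 of 6. No class moved one way in all 6 areas, and none passed after adjustment over the classes. Compared only with other cells of the same fields, a choice made after the data were seen, hepatocyte marker cells were less frequent in 6 of 6 areas, by 3.61 points (exact sign-flip p = 0.031, adjusted over the classes 0.1875). Biliary (p = 0.9375) and T/NK cells (p = 0.625, exact sign-flip tests) were more frequent in some areas and less in others. The genotypes were compared for each of these classes, and the lowest p was the 0.1 that 3 against 3 areas allow, for stellate cells (-1.04 points in Control, 3.42 in HIRA KO, exact permutation test).

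Position along the lobule differed between areas. The median distance to the nearest Glul-high cell, a mark of the central vein, to the nearest biliary cell, a mark of the portal tract, and to large-vessel, B and T/NK cells was not shorter or longer in all 6 areas for any class (exact sign-flip p from 0.15625 to 0.96875). Ig-rich cells lay 1397, 369 and 136 pixels from a biliary cell in Control 1 to 3 (all other cells 596, 887 and 690) and 476, 234 and 862 pixels in HIRA KO 1 to 3 (297, 287 and 772), so they were nearer in 3 areas and farther in the other 3. Igha cells taken alone lay nearer to a Glul-high cell than other cells did in 5 of 5 areas, at 827, 441, 990, 463 and 648 pixels against 1549, 786, 1560, 1147 and 1089 (exact sign-flip p = 0.0625, the smallest possible, adjusted over 5 distances 0.3125). In Ighm cells this held in 4 of 6 areas. Igha cells also had more MHC class II myeloid neighbours in 5 of 5 areas (16.7% against 6.77% on average, adjusted p = 0.3125, exact sign-flip test).

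Immunoglobulin transcripts were not confined to the selected cells. Of all decoded Igkc, Jchain and Igha transcripts, 53.0% lay in Ig-rich cells, 39.99% in other cells with at least 20 counts and 6.85% outside cells. In cells that were not Ig-rich, the 3 targets made up 11.9 to 39.7 per 1000 counts within 100 pixels of an Ig-rich cell and 1.67 to 1.996 beyond 1600 pixels. Ighm fell the same way, from 2.68 to 23.6 per 1000 within 100 pixels to 0.556 to 0.882 beyond 1600. Beyond 1600 pixels, hepatocyte marker cells, which should lack the gene, held at least 1 Igkc count in 6.22% to 17.7% of cells at median depths of 130 to 217 counts, and the 3 targets were at 1.21 to 1.81 per 1000 in them. A negative probe averaged 0.369 to 0.476 per 1000 there. A cell with 1 or a few Ig counts was therefore not read as a plasma cell. Whether counts near Ig-rich cells came from spread of signal, from shared outlines or from further cells of the B lineage was not tested.

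**Figure D5:**
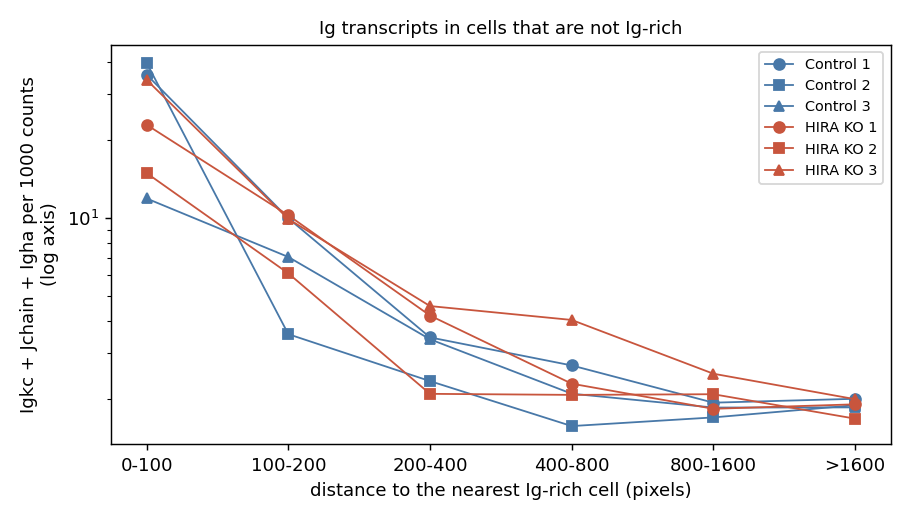
Igkc, Jchain and Igha counts per 1000 gene counts (log axis) in cells that were not Ig-rich, by distance in pixels to the nearest Ig-rich cell, 1 line per tissue area. All 6 areas fall from 11.9 to 39.7 within 100 pixels to 1.67 to 1.996 beyond 1600 pixels; the first bin of Control 2 holds 3 cells.

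Within Ig-rich cells, the share of transcripts assigned to the nucleus was compared between the 3 selecting targets and all other targets. It was 37.6%, 89.4%, 49.3%, 40.2%, 46.5% and 41.8% for the Ig targets in Control 1 to 3 and HIRA KO 1 to 3, and 47.2%, 69.3%, 50.05%, 46.6%, 52.4% and 44.03% for the others. The Ig targets were lower in 5 of 6 areas and higher in Control 2, with a mean difference of -0.83 points (exact sign-flip p = 0.90625). Without Control 2 it was -5.01 points.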

How the data were processed

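CosMx imaging was run by the platform on FFPE sections of the median lobe. The authors deposited raw counts per target and segmented cell, a table of single transcripts with their cell compartment, and, per the file headers, the mean intensity of 5 stains per cell with cell area and position. Coordinates are in pixels. The software versions of decoding and segmentation are not given in the sources used here. The study's own normalization and cell types were not used here.

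Cells under 20 gene counts and the 10 negative probes were left out, and 52132 cells were segmented. The Ig-rich cells, the gene lists and the heavy chain classes were chosen with earlier results of these data known. The tissue area was the unit of every test, with 3 areas per group. Values per area were compared by exact permutation or sign-flip tests (scipy 1.17.1), and summed counts by edgeR 4.0.16 (TMM, filterByExpr, threshold 0.05), with DESeq2 1.42.0 as an alternative. Genes were named where they passed, moved one way in all 6 areas and exceeded every negative probe, up to 10 per direction, with up to 6 of each list. Genes that passed in fewer areas are named from outside this rule (Slpi, S100a9, Srgn, Cd24a) and were chosen after their values were seen. The edgeR steps were tested on simulated data. Gene counts summed to 734269 to 1565758 per area, and to 416 to 38763 in Ig-rich cells. Alternatives changed the selection, the comparator, the neighbour number, the normalization and the areas used.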

Additional observations from a re-analysis of the deposited data

How the results depend on the processing

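Of 485 alternative values, 438 kept their direction and their side of the threshold or stayed close to the first value. For rates and shares compared between genotypes only the direction was asked, whatever the size. With 3 against 3 areas no such value could cross the threshold, so the count of 438 is no measure of how firm those results are. The rates of Igha+ cells and of Ig-rich cells outside groups kept HIRA KO above Control without overlap under every alternative run. The Igha+ difference fell to 12.4 per 10000 cells with only the richest cell kept among neighbouring Ig-rich cells. Leaving out an area could not bring overlap, since every HIRA KO area lay above every Control area. With each area left out in turn the 2 differences ranged from 17.3 to 27.9 and from 36.4 to 45.6 per 10000 cells. The minimum of 10 cells per group was not varied. The number of neighbour classes that moved one way in all areas was 0 and became 1 with 10 nearest cells, 2 with 50 and 2 against the same fields, and 0 to 5 with an area left out, where 5 was reached without Control 2. For distances that number was 0 to 1. The T/NK difference reversed to -0.0404 points against the same fields and ranged from -0.196 to 0.898 with an area left out, the biliary share from -2.04 to 2.30 points, and the biliary distance, -9.07 pixels at first, reversed to 86.3 against the same fields and ranged from -171 to 100.0. The nuclear share difference reversed to 0.317 points when membrane calls were left out and ranged from -5.01 (without Control 2) to 0.928. Genes called against neighbours numbered 75 with plain library sizes, 84 against all other cells of the area, 37 with DESeq2 and 18 (without HIRA KO 1) to 44 (without Control 2) with an area left out. Without Control 2, 875 genes could be tested in place of 686. Other causes were not tested. The numbers in the labels count fields and pair no samples. With the assumed slide row as a block the genotype test still gave 0 genes (edgeR, 2 at an unadjusted p under 0.05). The 3 Ig-rich cells of Control 2 limit every value that weights areas equally.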
